A study of Mus musculus with 6 samples.

Results

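The cytosolic ribosomal protein genes were followed across 6 RNA-seq libraries of PCM-1-bound cardiomyocyte (CM) nuclei. Members were the protein-coding genes of the count table whose symbol is Rpl or Rps followed by a number, together with *Rplp0* to *Rplp2* and *Rpsa*, and the S6 kinase genes were left out. This rule found 84 genes among the 54532 in the table, and it used names only, not values. By role, 43 encode large-subunit proteins, 31 small-subunit proteins and 3 stalk proteins, and 7 are paralogs whose names end in l, al or l1. *Rps4l* is annotated as a processed pseudogene and so was not a member. Of the 84 members, 82 passed the filter on low counts (a median log2 CPM over 1 in at least 1 group, where CPM, counts per 1000000 counts of the scaled library, is the unit of level used throughout), as did 13323 genes in all. The other 2 were *Rpl10l*, with 0 counts in every library, and *Rpl39l*, with 1 count in all.

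Wild-type ICR mice received 1e+11 viral genomes of AAV9 under the skin on postnatal day 6, and hearts were taken on day 9, so 3 d passed in between. The virus carried cTnT-GFP in the control group, cTnT-YAP6SA in the YAP6SA group and cTnT-YAP5SA in the YAP5SA group, so every heart received AAV9 and a cargo driven by the cTnT promoter, which is active in CMs. YAP5SA has the LATS target serines of YAP changed to alanine, and YAP6SA carries in addition a serine-to-alanine change in the TEAD-binding domain that weakens TEAD binding. A group comprised 2 libraries, of which 1 belonged to each batch, and the labels give 2 hearts for each virus without tying a heart to a library, so the p-values measure the spread between these libraries. Nuclei were taken by pulldown with an antibody to PCM-1, a protein of the nuclear surface of CMs, and poly-A RNA was sequenced without strand information. Values of a group are given in the order batch 1, batch 2. Gene counts totaled 18832871 and 16362077 for GFP, 19615627 and 17176301 for YAP6SA, and 14552847 and 17197114 for YAP5SA. *Yap1* itself, which could show the transgene, had 2647 and 1987 counts in GFP, 2397 and 2147 in YAP6SA and 2089 and 1828 in YAP5SA, so the overexpression is not visible in the counts of the mouse gene, and whether reads of the viral cargo map to it was not tested. The troponin gene *Tnnt2*, a defining CM marker, was present in every library, from 10633 to 21092 CPM.

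A ribosome is built from ribosomal RNA and a set of proteins, most of them present once in each ribosome, and the genes of these proteins are known to be regulated together. Many of these messages start with a run of C and T bases (a terminal oligopyrimidine, or TOP, tract), through which mTOR and LARP1 set their translation. Cardiac and skeletal muscle are known for a swap within this family, in which *Rpl3l* takes the place of *Rpl3*, a protein next to the peptidyl transferase center, in a share of ribosomes.

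Sequences are shown for 7 annotated start sites of 6 members, so that C and T runs near a start can be seen beside *Rpl3l*, the member that moved against the family in the counts. Apart from *Rpl3l*, the members shown were picked from those with a run at a start site, so the lines do not stand for the family, in which 39 of 76 sites have none. Each line gives 60 bases of mouse GRCm38.p6 from RefSeq, 30 before and 30 from the annotated start, read 5′ to 3′ on the gene's strand. Capitals mark a run of 8 or more C or T bases, and a line without capitals holds none.
*Rps6*, chr4:86857338-86857397, minus strand: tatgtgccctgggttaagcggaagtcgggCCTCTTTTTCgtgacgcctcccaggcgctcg
*Rpl28*, chr7:4792935-4792994, plus strand: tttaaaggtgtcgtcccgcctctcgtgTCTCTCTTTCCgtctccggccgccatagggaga
*Rps27*, chr3:90213619-90213678, minus strand: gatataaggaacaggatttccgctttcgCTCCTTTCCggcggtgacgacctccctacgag
*Rpl10a*, first start, chr17:28328441-28328500, plus strand: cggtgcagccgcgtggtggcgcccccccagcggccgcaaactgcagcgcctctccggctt
*Rpl10a*, second start, chr17:28328535-28328594, plus strand: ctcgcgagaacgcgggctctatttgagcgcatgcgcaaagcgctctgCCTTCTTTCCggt
*Rpl22l1*, chr3:28805478-28805537, plus strand: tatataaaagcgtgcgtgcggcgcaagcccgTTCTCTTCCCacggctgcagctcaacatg
*Rpl3l*, chr17:24727796-24727855, plus strand: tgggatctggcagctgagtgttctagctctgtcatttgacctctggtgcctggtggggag

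The run began 1 base before the annotated start in *Rps6*, 3 before in *Rpl28*, 2 before in *Rps27* and 1 after in *Rpl22l1*. In *Rpl10a* it began 17 bases after the second start, away from the first base of the message, and the first start has no run. The *Rpl3l* site shown has none.

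RefSeq promoter sequences matched 64 of the 84 members, with 76 start sites. A run of 8 or more C or T bases within 30 bases of the start was present at 48.68% of these sites, against 22.46% of the 21263 start sites of protein-coding genes. The TEAD motif CATTCC, searched on both strands over the 300 bases from 250 before to 50 after the start, was present at 9.21% of the members' sites and 13.58% of all. The E-box CACGTG, the MYC-type motif, was present at 10.53% and 7.84%. These letters do not overlap with the C and T run motif as searched, except that the bases TTCC of CATTCC can lie within such a run. A match is a description of the sequence, and no match says only that these letters are not in the window.

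As a family, the ribosomal protein genes were highest in the YAP5SA libraries. Their summed level was 6790 and 6049 CPM with GFP, 8366 and 6715 CPM with YAP6SA, and 9565 and 12756 CPM with YAP5SA. Both YAP5SA libraries were above all 4 others, the YAP6SA library of batch 2 lay between the GFP libraries, and the YAP5SA library of batch 2 was the highest of all. As a share of all gene counts, the family took 0.628% ± 0.085 with GFP, 0.744% ± 0.137 with YAP6SA and 1.16% ± 0.235 with YAP5SA (mean ± SD, n = 2 libraries). Of the 82 members that passed the filter, 78 had their highest CPM in the YAP5SA library of batch 2, and 60 had their lowest in the GFP library of batch 2. The 4 that peaked elsewhere were *Rpl22l1*, *Rpl23a*, *Rpl36al* and *Rpl3l*.

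**Figure D1:**
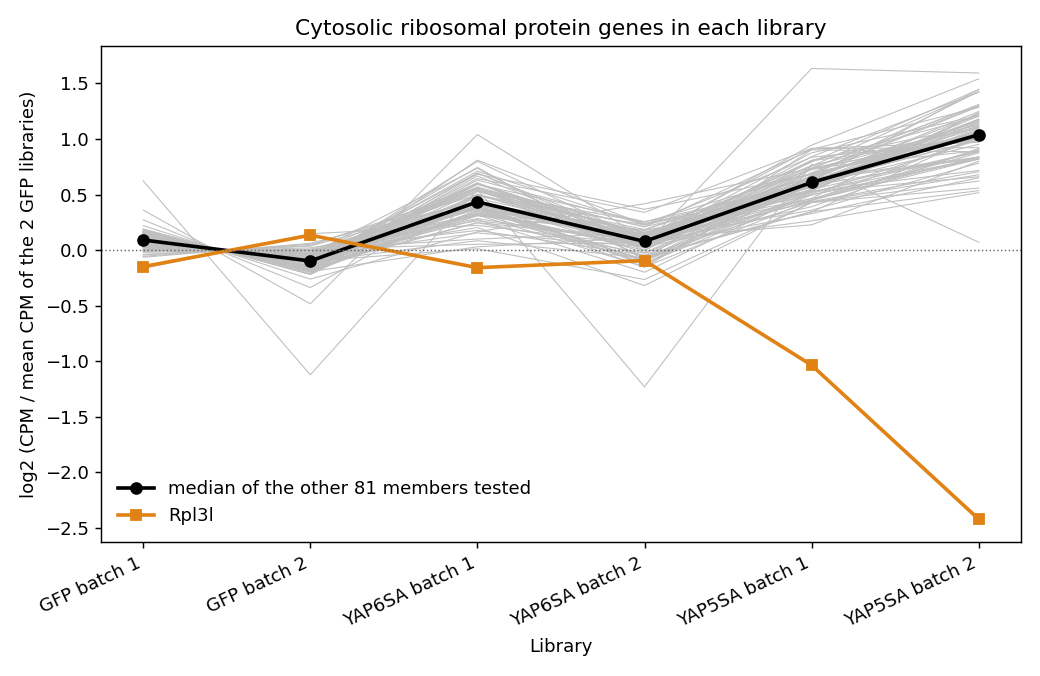
The vertical axis gives the log2 ratio of a gene's CPM to its mean in the 2 GFP libraries, and the horizontal axis the 6 libraries. Gray lines are single members, the black line is the median of the 81 members other than *Rpl3l*, and the orange line is *Rpl3l*, which fell in the YAP5SA libraries where the median was highest.

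Abundance differed widely within the family. Per kilobase of the principal transcript, the 5 most abundant members were *Rpl10a*, *Rpl36*, *Rpl41*, *Rps9* and *Rplp1*. *Rpl10a*, a large-subunit protein, stood at 503 CPM per kilobase in GFP, 529 in YAP6SA and 1120 in YAP5SA (means of 2 libraries). *Rpl36* stood at 394 in GFP, and *Rpl41*, which encodes a peptide among the shortest known, at 269. At the other end were *Rpl24*, at 1.75, and *Rpl36al*, at 1.90 CPM per kilobase in GFP. Reads that map to several places were not counted, and 60 members have pseudogenes of the same family in the table (300 rows), so levels of such members may be understated. Exons of 12 members overlap another gene by over 20% of their bases, with *Rpl35* (66.16%, *Arpc5l*) and *Rpl23a* (62.34%, *Tlcd1*) the most covered, and reads there could be left out as ambiguous or given to the neighbor. *Rpl24* (46.99%) and *Rpl36al* (24.54%) were also among the 12, so their low levels may be understated.

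In YAP5SA OE CMs against GFP, 71 of the 82 members rose and 1, *Rpl3l*, fell (edgeR quasi-likelihood test with a batch term, Benjamini-Hochberg FDR under 0.05). Among all 13323 genes tested, 12.8% were called higher and 9.18% lower. The members' median log2 fold change was 0.88, against -0.00 over all genes tested. Of the 82, 14 rose by over 2-fold on the fitted scale, 59 had a fitted fold between 1.5 and 2, and 8 a smaller positive change. Both YAP5SA libraries were above both GFP libraries for 80 members, which was the case for 31.2% of all genes tested. The exceptions were *Rpl3l* and *Rpl23a*.

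The number of calls moved with single libraries and with the threshold. The median log2 difference between YAP5SA and GFP was 0.51 within batch 1 and 1.11 within batch 2, and 81 members were higher in YAP5SA in each batch. Without the GFP library of batch 2 only 2 members were called higher (*Rpl19* and *Rps16*, named after their values were seen), where 4.4% of all genes were called. Without the YAP5SA library of batch 2 the number was 30, where 8.16% of all genes were called, and without the GFP or the YAP5SA library of batch 1 it was 49 and 77, where 9.09% and 18.9% were. With no batch term it was 60, where 9.99% of all genes were called, and at an FDR of 0.01 it was 16, where 6.03% were. The 71 members called higher had positive log2 fold changes under each of the 15 alternative settings. With no batch term, *Rpl5* (edgeR adjusted p = 0.0846), *Rps6* (0.0691), *Rpl22l1* (0.0645) and *Rpl36a* (0.0555) were among the calls lost, and *Rpl5* was also lost in the fit of the 4 libraries compared (0.0582).

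**Figure D2:**
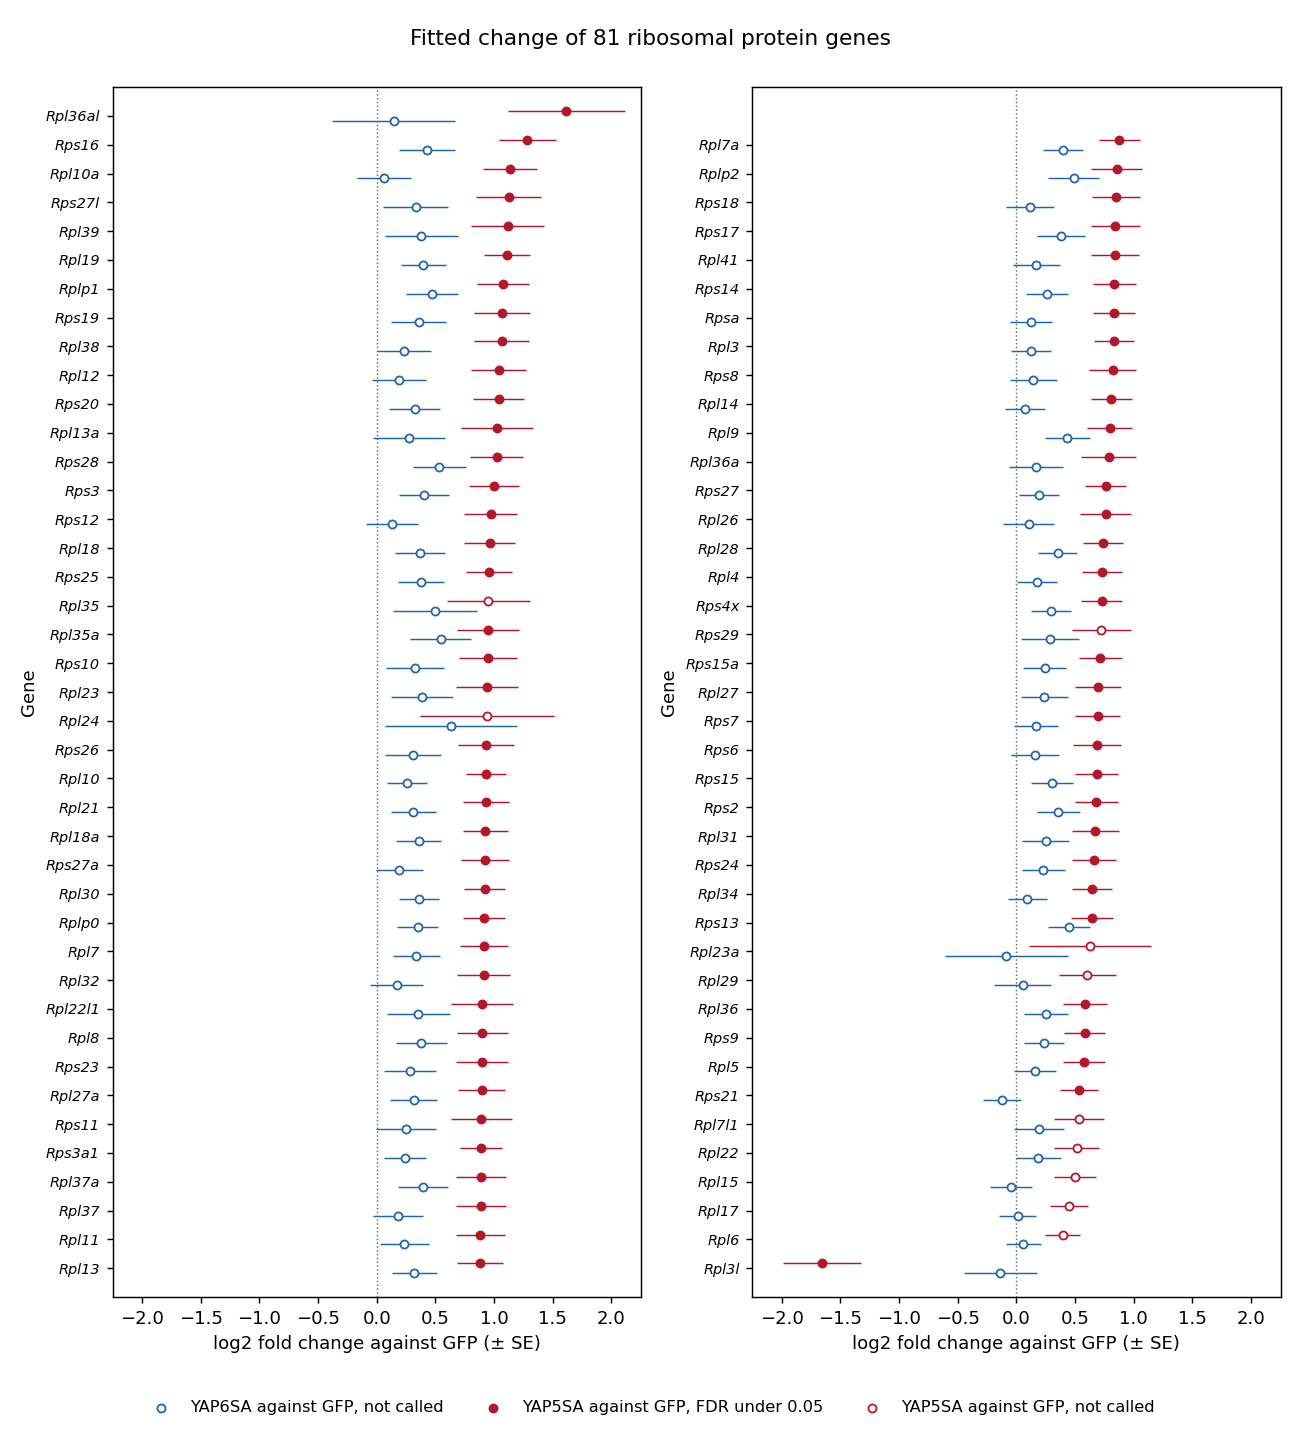
The horizontal axis gives the fitted log2 fold change against GFP of 81 of the 82 members (rows), in blue for YAP6SA and red for YAP5SA, with bars of 1 standard error, and filled points passed an FDR of 0.05. Nearly all red points are filled and lie to the right, *Rpl3l* lies to the left, and no blue point is filled.

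Among large-subunit proteins, 35 of 43 rose in YAP5SA against GFP (81.4%, where 12.8% of all genes did), with a median log2 fold change of 0.88. *Rpl10a* had 7873 and 4922 counts in GFP, 7382 and 6564 in YAP6SA, and 9623 and 17876 in YAP5SA. It rose 2.20-fold (log2 1.14, SE 0.23, FDR 0.00858), and both YAP5SA libraries were above all 4 others. *Rpl3* had 4931 and 3991 counts in GFP, 5479 and 4765 in YAP6SA, and 5992 and 9541 in YAP5SA. It rose 1.78-fold (log2 0.83, SE 0.17, FDR 0.00869), and its GFP libraries, at 258 and 260 CPM, were nearly alike. *Rpl10*, which joins the subunit late, after export from the nucleus, was at 143 and 142 CPM in GFP, 178 and 161 in YAP6SA, and 236 and 308 in YAP5SA, with no overlap between any of the groups (log2 0.93 in YAP5SA against GFP, FDR 0.00528). *Rpl5* and *Rpl11*, which can bind MDM2 when not in a ribosome, also rose. *Rpl5* was at 129 and 105 CPM in GFP and 157 and 187 CPM in YAP5SA (log2 0.57, FDR 0.0459). *Rpl11* was at 61.3 and 66.9 CPM in GFP and 98.9 and 138 CPM in YAP5SA (log2 0.88, FDR 0.0152). *Rpl39*, which lines the peptide exit tunnel, was at 23.6 and 20.2 CPM in GFP and 34.8 and 58.9 CPM in YAP5SA (log2 1.12, FDR 0.0304). Of the abundant members, *Rpl36* rose by a log2 of 0.59 (FDR 0.0482) and *Rpl41* by 0.84 (FDR 0.017), with YAP5SA above GFP in both batches for each.

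Of the 31 small-subunit proteins, 30 rose in YAP5SA against GFP (96.8%, where 12.8% of all genes did), with a median log2 fold change of 0.84. *Rps16*, which reaches the decoding site, was at 64.7 and 56.6 CPM in GFP, 98 and 65.3 in YAP6SA, and 117 and 177 in YAP5SA, and rose 2.43-fold against GFP (log2 1.28, SE 0.24, FDR 0.00598). Its YAP5SA libraries were above all others, and YAP6SA was above GFP by more in batch 1 than in batch 2. *Rps6*, the S6 kinase target, was at 58.6 and 46 CPM in GFP, 68.9 and 48.1 in YAP6SA, and 73.8 and 92.3 in YAP5SA (log2 0.69, SE 0.20, FDR 0.0374). *Rpsa*, also known as the laminin receptor, was at 143 and 124 CPM in GFP, 173 and 120 in YAP6SA, and 223 and 248 in YAP5SA (log2 0.83, FDR 0.0112). *Rps19*, mutated in Diamond-Blackfan anemia, was at 59.7 and 47.6 CPM in GFP and 89.6 and 133 CPM in YAP5SA (log2 1.07, FDR 0.0121). The X-linked *Rps4x* was at 95.2 and 78.4 CPM in GFP and 130 and 155 in YAP5SA (log2 0.73, FDR 0.0159). *Rps27* rose by a log2 of 0.76 (FDR 0.0129) and *Rps9* by 0.58 (FDR 0.0391). The small-subunit protein gene that did not pass the test was *Rps29* (log2 0.72, SE 0.25, FDR 0.0649).

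The 3 stalk proteins, which form the flexible arm of the large subunit that receives the elongation factors, rose together. All 3 passed the test in YAP5SA against GFP, where 12.8% of all genes were called higher. *Rplp0*, the base of the stalk, was at 115 and 103 CPM in GFP, 161 and 117 in YAP6SA, and 190 and 218 in YAP5SA (log2 0.92 against GFP, SE 0.18, FDR 0.00672). *Rplp1* was at 121 and 101 CPM in GFP, 193 and 118 in YAP6SA, and 203 and 256 in YAP5SA (log2 1.08, FDR 0.00896). *Rplp2* was at 75.3 and 64.8 CPM in GFP, 115 and 82 in YAP6SA, and 103 and 148 in YAP5SA (log2 0.85, FDR 0.0215). For *Rplp2* the YAP6SA and YAP5SA libraries overlapped.

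Besides *Rps29*, 9 members did not pass the test in YAP5SA against GFP, and each had a positive log2 fold change. These were *Rpl6*, *Rpl15*, *Rpl17*, *Rpl22*, *Rpl23a*, *Rpl24*, *Rpl29*, *Rpl35* and the paralog *Rpl7l1*. *Rpl6* had the smallest change of these (log2 0.39, SE 0.15, FDR 0.0907), with 185 and 188 CPM in GFP and 224 and 267 CPM in YAP5SA. *Rpl17* (log2 0.45, SE 0.16, FDR 0.0696) and *Rpl15* (log2 0.50, FDR 0.0718) were alike in size. *Rpl23a* and *Rpl24* had few counts, 12 to 50 and 13 to 48 in a library, and standard errors of 0.52 and 0.57. A change of the size seen in the family could therefore be missed for them. Other genes overlap 62.34% and 46.99% of their exon bases, where reads shared by genes were left uncounted.

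The paralogs did not move as a group. *Rpl3l* (ENSMUSG00000002500, chromosome 17 of GRCm38, 24727820 to 24736143, plus strand) had 3003 and 2940 counts in GFP, 3084 and 2704 in YAP6SA, and 1289 and 583 in YAP5SA. In CPM this was 157 and 191, 156 and 163, and 85.1 and 32.6. Both YAP5SA libraries were below all 4 others, and the GFP and YAP6SA libraries overlapped. The gene fell in YAP5SA OE CMs against GFP by 1.65 on the log2 scale (SE 0.33, FDR 0.00779) and against YAP6SA by 1.52 (SE 0.33, FDR 0.0145). Against GFP it was called lower under every one of the 15 alternative settings, with log2 fold changes from -2.50 to -0.93. Against YAP6SA the call was lost with DESeq2 (adjusted p = 0.0801) and without the YAP6SA library of batch 2 (edgeR adjusted p = 0.0778). The YAP6SA change against GFP was -0.14 (SE 0.31, FDR 0.963). Its sign turned with single libraries, to 0.39 without the GFP library of batch 2 and 0.12 without the YAP6SA library of batch 1.

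Set against *Rpl3* per kilobase of transcript, *Rpl3l* made up 37.4% and 42.0% of the pair in the GFP libraries, 35.6% and 35.8% in YAP6SA, and 17.4% and 5.66% in YAP5SA. The 2 coding sequences were identical at 74.79% of aligned bases, with no shared run longer than 22 bases, and no pseudogene of *Rpl3l* is in the table. *Rpl3* and *Rpl3l* therefore moved in opposite directions in YAP5SA, and the spread between its libraries was wide. The summed level of 15 CM markers was 66195 and 85252 CPM in GFP, 64689 and 81885 in YAP6SA, and 55973 and 40368 in YAP5SA, so both YAP5SA libraries were below all others. In YAP5SA against GFP, 1 marker was called higher and 2 lower (6.67% and 13.3%, where 12.8% and 9.18% of all genes were), with a median log2 fold change of -0.38. The median difference was 0.03 within batch 1, with 8 of 15 markers positive, and -0.81 within batch 2, with 1 positive, while *Rpl3l* was lower in YAP5SA in both batches. In YAP5SA against YAP6SA, 1 marker was called higher and 4 lower (6.67% and 26.7%, where 9% and 5.68% of all genes were). The median there was -0.68, with 14 of 15 markers negative. Within batches 1 and 2 the median differences from YAP6SA were -0.31 and -0.99, with 2 and 1 markers positive. *Myh6*, the most abundant of them, was at 17843 and 27954 CPM in GFP and 13043 and 8636 in YAP5SA (log2 -1.04, FDR 0.0625), and no marker of the list was at 0. The part of these markers in the *Rpl3l* result was not tested, and in bulk samples fewer cells of a type and less RNA per cell cannot be told apart.

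**Figure D3:**
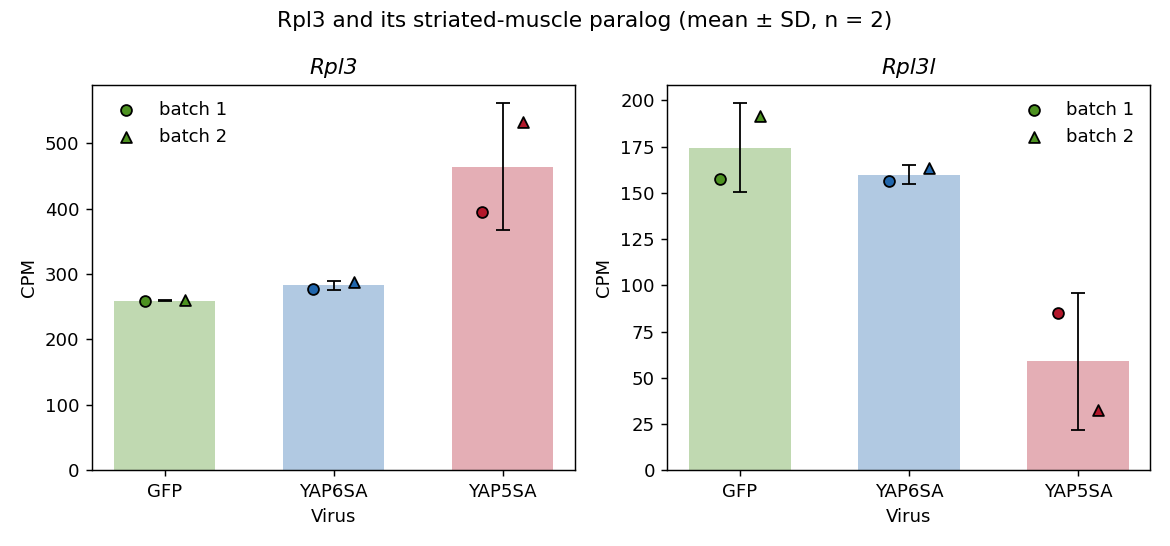
The vertical axis gives CPM from 0 for *Rpl3* (left) and *Rpl3l* (right), and the horizontal axis the virus. Bars are means of 2 libraries with SD, circles are batch 1 and triangles batch 2, and YAP5SA is highest for *Rpl3* and lowest for *Rpl3l* in both batches.

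The other paralogs rose or were positive. *Rpl22l1*, a paralog of *Rpl22*, was at 11.2 and 10.7 CPM in GFP, 18.2 and 10.3 in YAP6SA, and 20.5 and 20.2 in YAP5SA (log2 0.90 against GFP, SE 0.26, FDR 0.0358). It made up 41.6% and 46.4% of the pair with *Rpl22* per kilobase in GFP and 53.7% and 47.8% in YAP5SA, while the YAP6SA libraries, at 50.8% and 41.9%, spanned most of that range. *Rpl22* itself was at 58.6 and 45.8 CPM in GFP and 65.6 and 82 in YAP5SA (log2 0.51, SE 0.19, FDR 0.0791). *Rps27l* was at 12.9 and 12 CPM in GFP and 21.1 and 33.4 in YAP5SA (log2 1.12, SE 0.28, FDR 0.0188). *Rpl36al* had 17 and 17 counts in GFP, 23 and 17 in YAP6SA, and 47 and 54 in YAP5SA, which is 3.06-fold against GFP (FDR 0.0437). The call was lost with no filter on low counts (edgeR adjusted p = 0.0525), with DESeq2 (0.0891), in the fit of the 4 libraries compared (0.0525) and with any 1 library left out (0.0591 to 0.249). It was the largest fitted rise in the family, in one of the least counted members, and *Rpl36al* made up 2.18% to 3.30% of the pair with *Rpl36a* in GFP and 4.01% to 5.68% in YAP5SA. *Rpl36a* was at 36.7 and 29.8 CPM in GFP and 47.3 and 66.2 in YAP5SA (log2 0.78, FDR 0.0364). *Rpl7l1* was at 25 and 25.8 CPM in GFP and 29.8 and 44.3 in YAP5SA (log2 0.53, FDR 0.103), while *Rpl7* was at 69.5 and 60.2 and rose to 107 and 135 (log2 0.91, FDR 0.0124).

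In YAP6SA OE CMs against GFP, 0 of the 82 members passed the test in either direction, where 0.045% of all genes were called higher and 0% lower. DESeq2 also called 0 members, where 0.3% of all genes were called higher and 0.113% lower, as did edgeR's likelihood ratio test (0.405% and 0.21%) and limma-voom (0.045% and 0%). At an unadjusted p under 0.05 there were 5 (*Rpl7a*, *Rpl9*, *Rplp2*, *Rps13* and *Rps28*, all higher), against 3.86% of all genes higher. In the fit of the 4 libraries compared, *Rps28* was called higher, where 1.31% of all genes were. Log2 fold changes were positive for 78 members, with a median of 0.26 beside 0.00 over all genes tested. Other lists were shifted in the same direction. Protein-coding genes other than members with a principal transcript under 1000 bases, a comparison chosen after the data were seen, had a median of 0.18 with 453 of 605 positive, fibroblast markers a median of 0.32 with 10 of 10 positive, and mural cell markers 0.27 with 8 of 8 positive. Of the 605 short genes 0 were called, and 76 were higher and 2 lower at an unadjusted p under 0.05. Among the 82 members, the highest were *Rpl24* (0.63, SE 0.57), *Rpl35a* (0.55, SE 0.26) and *Rps28* (0.53, SE 0.22), and the lowest *Rpl3l* (-0.14), *Rps21* (-0.12, SE 0.16) and *Rpl23a* (-0.09, SE 0.52). *Rpl35a* was at 27.5 and 20.8 CPM in GFP and 42.3 and 28.3 in YAP6SA. *Rps28* was at 45.2 and 36.8 CPM in GFP and 65.9 and 52.9 in YAP6SA, with no overlap. *Rps21*, at 71.4 and 62.6 CPM in GFP and 67.6 and 55.8 in YAP6SA, overlapped.

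The positive shift in YAP6SA was larger within batch 1. The median log2 difference from GFP was 0.35 within batch 1 and 0.16 within batch 2, with 76 and 65 of the 82 members positive, and 62 were higher in both batches. Batch 1 was higher than batch 2 for 77 members in YAP6SA and for 71 in GFP. Both YAP6SA libraries were above both GFP libraries for 35 members, where 17.4% of all genes tested were. Without the YAP6SA library of batch 1 the median was -0.0001 with 41 members positive, and without that of batch 2 it was 0.48.

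Between the variants, 15 members were higher in YAP5SA than in YAP6SA and 1, *Rpl3l*, was lower, where 9% of all genes were called higher and 5.68% lower. Among the 15 were *Rpl3*, *Rpl10*, *Rpl10a*, *Rpl12*, *Rpl14*, *Rpl19*, *Rpl38*, *Rpsa*, *Rps3a1*, *Rps12*, *Rps16*, *Rps18*, *Rps21* and *Rps27a*. The median log2 fold change was 0.57, and 81 of 82 were positive. Among the members called higher, *Rpl10a* differed most, at 635 and 998 CPM in YAP5SA against 374 and 397 in YAP6SA (log2 1.07, SE 0.23, FDR 0.0143). *Rps16* followed (log2 0.86, FDR 0.0401). *Rpl36al*, at log2 1.47 (SE 0.49, FDR 0.0731), did not pass. At the low end, above *Rpl3l*, stood *Rps13* (log2 0.20) and *Rpl24* (log2 0.30).

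Here too the batches differed. The median difference was 0.16 within batch 1 and 0.95 within batch 2, where YAP5SA was highest and YAP6SA near GFP. Without the YAP5SA library of batch 2, 1 member was called higher (*Rpl10a*), without the YAP6SA library of batch 2, 0, and without the YAP5SA library of batch 1, 75, where 5.73%, 2.54% and 16.1% of all genes were. Without the YAP6SA library of batch 1 the number was 26, where 6.28% were. The number also moved with the test, to 35 with the likelihood ratio test (12.1% of all genes), 25 with DESeq2 (9.21%, and 0 members lower where 6.37% were), 24 with limma-voom (9.61%), 49 with no filter on low counts (5.81%) and 3 with no batch term (6.39%), which were *Rpl10a*, *Rpl14* and *Rps21*. At an FDR of 0.01 no member was called higher (4.03% of all genes) or lower (0.923%), and at 0.1 it was 45 (12.7%). Both YAP5SA libraries were above both YAP6SA libraries for 65 members, where 28.6% of all genes were. A joint test of any difference between the 3 groups called 50 members, where 17.6% of all genes were called. It called 27 with no batch term, where 10.5% were, and 1 (*Rpl19*) at an FDR of 0.01, where 6.31% were, and from 13 without the GFP library of batch 2 (12.2%) to 78 without the YAP5SA library of batch 1 (32.4%). Both comparisons against GFP share the GFP libraries, and both with YAP5SA share its libraries.

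**Figure D4:**
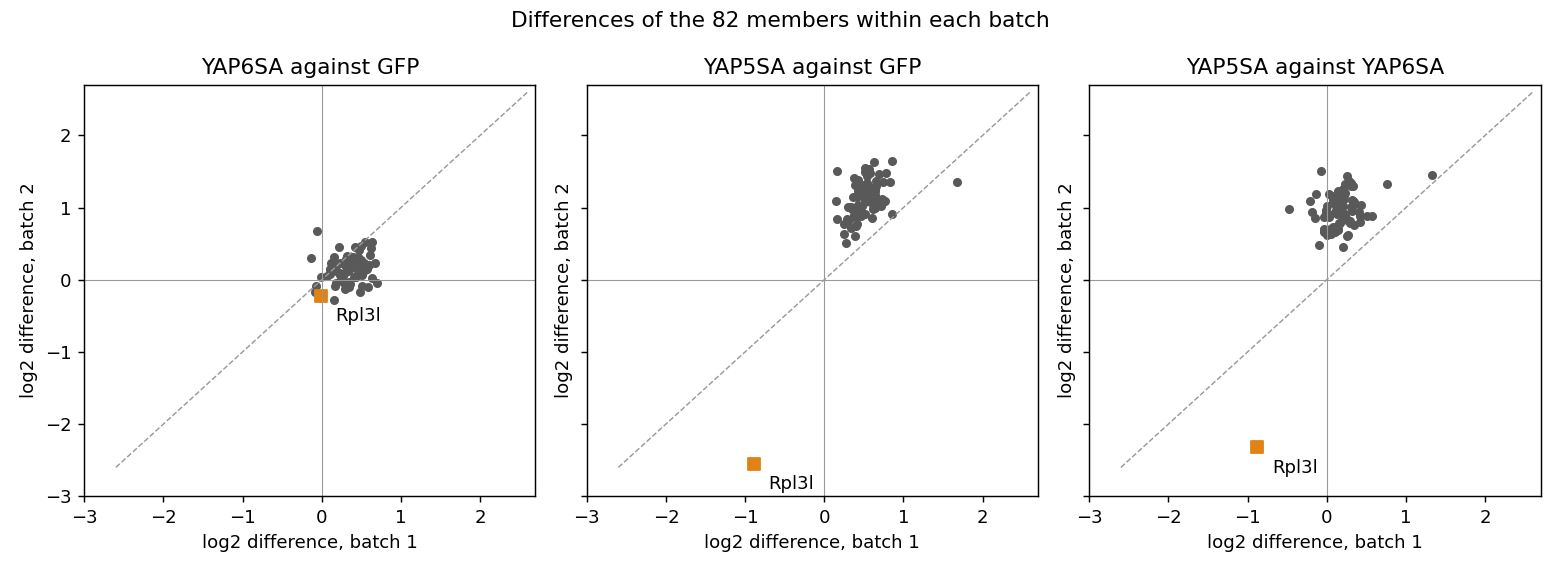
Each point is 1 of the 82 members, with its log2 difference in batch 1 on the horizontal axis and in batch 2 on the vertical axis, for the 3 comparisons, and the dashed line marks equal values. In both YAP5SA panels nearly all points lie above the line, and in the YAP6SA panel most lie below it, and the orange square is *Rpl3l*.

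Ribosomal proteins outside the naming rule and genes that serve ribosomes were also followed. *Rack1*, a small-subunit protein that also binds kinases, was at 319 and 305 CPM in GFP, 318 and 315 in YAP6SA, and 437 and 589 in YAP5SA (log2 0.71, FDR 0.0201), and *Fau* also rose (log2 0.82, FDR 0.0141). Of 54 ribosome biogenesis genes, 14 rose and 1 fell in YAP5SA against GFP (25.9% and 1.85%, where 12.8% and 9.18% of all genes did), with a median log2 fold change of 0.35. *Nop56*, a core protein of box C/D snoRNPs, was at 142 and 154 CPM in GFP and 178 and 254 in YAP5SA (log2 0.52, FDR 0.0402), while *Ubtf*, which drives transcription of ribosomal RNA, was at 151 and 202 in GFP and 140 and 157 in YAP5SA (FDR 0.291). *Myc*, a driver of ribosome production named after its values were seen, was at 20.7 and 15.3 CPM in GFP, 13.5 and 18.7 in YAP6SA, and 30.03 and 81.3 in YAP5SA (log2 1.48, FDR 0.0172). The 2 YAP5SA values of *Myc* lay far apart, the higher again in batch 2.

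Of 20 other translation genes, many with TOP-type messages, 8 rose and 0 fell in YAP5SA against GFP (median 0.43). These were 40% and 0%, where 12.8% of all genes rose and 9.18% fell. *Naca*, the most abundant, was at 1653 and 1576 CPM in GFP and 1220 and 1002 in YAP5SA (log2 -0.54, FDR 0.0676). *Eef1a1*, the general elongation factor, was at 443 and 410 CPM in GFP, 494 and 448 in YAP6SA, and 728 and 1003 in YAP5SA (log2 1.01, FDR 0.00686). *Eef1a2*, its muscle and nerve form, was named after its values were seen; it was at 347 and 352 CPM in GFP, 290 and 310 in YAP6SA, and 205 and 126 in YAP5SA (log2 -1.10, FDR 0.00582). These elongation factors, like *Rpl3* and *Rpl3l*, thus moved in opposite directions in the YAP5SA libraries. Of 25 other initiation factors and regulators, 4 rose (16%, near the 12.8% of all genes) and 0 fell (median 0.37), and the most abundant, *Eif4a2* and *Eif4g2*, had log2 fold changes of 0.30 and -0.23 with FDR 0.261 and 0.371. Of 11 snoRNA host genes kept, 6 rose (54.5%, where 12.8% of all genes did) and 0 fell, with a median of 0.60. *Gas5* was at 223 and 134 CPM in GFP and 232 and 298 in YAP5SA (FDR 0.0892). *Snhg20* was at 241 and 190 in GFP and 183 and 187 in YAP5SA (FDR 0.410).

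The mitochondrial ribosome, whose proteins are also encoded in the nucleus, had a median log2 fold change of -0.14 in YAP5SA against GFP. Of 77 of its genes tested, 4 were higher (5.19%, where 12.8% of all genes were) and 8 lower (10.4%, near the 9.18% of all genes). *Mrpl3* was at 183 and 176 CPM in GFP and 139 and 92.5 in YAP5SA (log2 -0.66, FDR 0.0205), and *Mrps17* at 207 and 172 in GFP and 172 and 130 in YAP5SA (FDR 0.141). In YAP6SA against GFP its median was 0.07, with 0 called. In YAP5SA against YAP6SA its median was -0.24, with 56 of 77 genes negative. There 6 were called lower (7.79%, where 5.68% of all genes were) and 0 higher (where 9% were).

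Nuclei carry some cytoplasmic RNA into such libraries, and messages that are mostly cytoplasmic, ribosomal protein messages among them, can move with it. Polyadenylated mRNAs of the mitochondrial genome, which are made outside the nucleus, summed to 11956 and 12374 CPM in GFP, 18104 and 23549 in YAP6SA, and 19693 and 26959 in YAP5SA. They were higher in both variants than in either GFP library. In YAP5SA against GFP all 10 tested were called higher (median 0.95), where 12.8% of all genes were. In YAP6SA against GFP 0 of 10 were called (median 0.79), where 0.045% of all genes were higher, and 10 of 10 were higher at an unadjusted p under 0.05. Between the variants 0 of 10 were called (median 0.17), where 9% of all genes were higher and 5.68% lower. *mt-Co1*, the most abundant, was at 6723 and 6223 CPM in GFP, 9940 and 11994 in YAP6SA, and 11258 and 13941 in YAP5SA. The ribosomal protein genes thus had medians of 0.26, 0.88 and 0.57 in the 3 comparisons where these mRNAs had 0.79, 0.95 and 0.17. In YAP5SA both sets were higher in batch 2, with median differences from GFP of 0.72 and 1.16 within batches 1 and 2 for the mitochondrial mRNAs and 0.51 and 1.11 for the ribosomal protein genes. In YAP6SA the mitochondrial mRNAs were higher in batch 2 and the ribosomal protein genes in batch 1. Noncoding RNAs that stay in the nucleus, led by *Neat1* and *Malat1*, summed to 5981 and 7299 CPM in GFP, 7285 and 6270 in YAP6SA, and 6044 and 6201 in YAP5SA. Each variant overlapped GFP, and both YAP5SA libraries were below both YAP6SA libraries. Of that list, 4 of 10 RNAs were called higher in YAP5SA against GFP (40%, where 12.8% of all genes were). A further 1 was lower (10%, near the 9.18% of all genes), and the median was 0.03. In YAP5SA against GFP, 94 of 605 short protein-coding genes were called higher (15.5%, near the 12.8% of all genes) and 37 lower (6.12%, where 9.18% were). Their median was 0.14. Against YAP6SA, 28 were higher (4.63%, where 9% of all genes were) and 39 lower (6.45%, near 5.68%), with a median of -0.06. The share of reads that mapped to several places, which are not in the counts, was 2.90% and 3.07% in GFP, 3.43% and 3.69% in YAP6SA, and 3.39% and 4.19% in YAP5SA. The part of carry-over and of transcript length in the ribosomal protein results was not tested.

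Markers of other heart cells were present in all libraries, with none of the listed fibroblast, endothelial, macrophage or mural genes at 0 throughout. Fibroblast markers (10 genes, led by *Col3a1*) summed to 1409 and 894 CPM in GFP, 1831 and 1025 in YAP6SA, and 1538 and 938 in YAP5SA, higher in batch 1 than in batch 2 of each group, with 0 called in any comparison. In YAP6SA against GFP 4 of the 10 were higher at an unadjusted p under 0.05, and their median difference was 0.42 within batch 1 and 0.20 within batch 2, where the ribosomal protein genes had 0.35 and 0.16. Endothelial markers (10 genes, led by *Egfl7*) had the same batch order, at 678 and 540, 804 and 560.5, and 711 and 556 CPM. Macrophage markers (10 genes, led by *Csf1r*) summed to 72.4 and 104 CPM in GFP, 89.5 and 120 in YAP6SA, and 105 and 156 in YAP5SA. In YAP5SA against GFP 2 of 9 were called higher (22.2%, where 12.8% of all genes were), among them *C1qa* (FDR 0.0228). Mural markers (8 genes, led by *Abcc9*) summed to 502 and 573 CPM in GFP, 573 and 595 in YAP6SA, and 433 and 342 in YAP5SA. In YAP5SA against GFP 1 of 8 was called lower (12.5%, near the 9.18% of all genes), *Abcc9* (log2 -0.81, FDR 0.0287). Erythroid genes (7 found, led by *Hbb-bs*) were low, at 25.1 to 63.8 CPM in sum. The part of these cells in the ribosomal protein result was not tested.

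**Figure D5:**
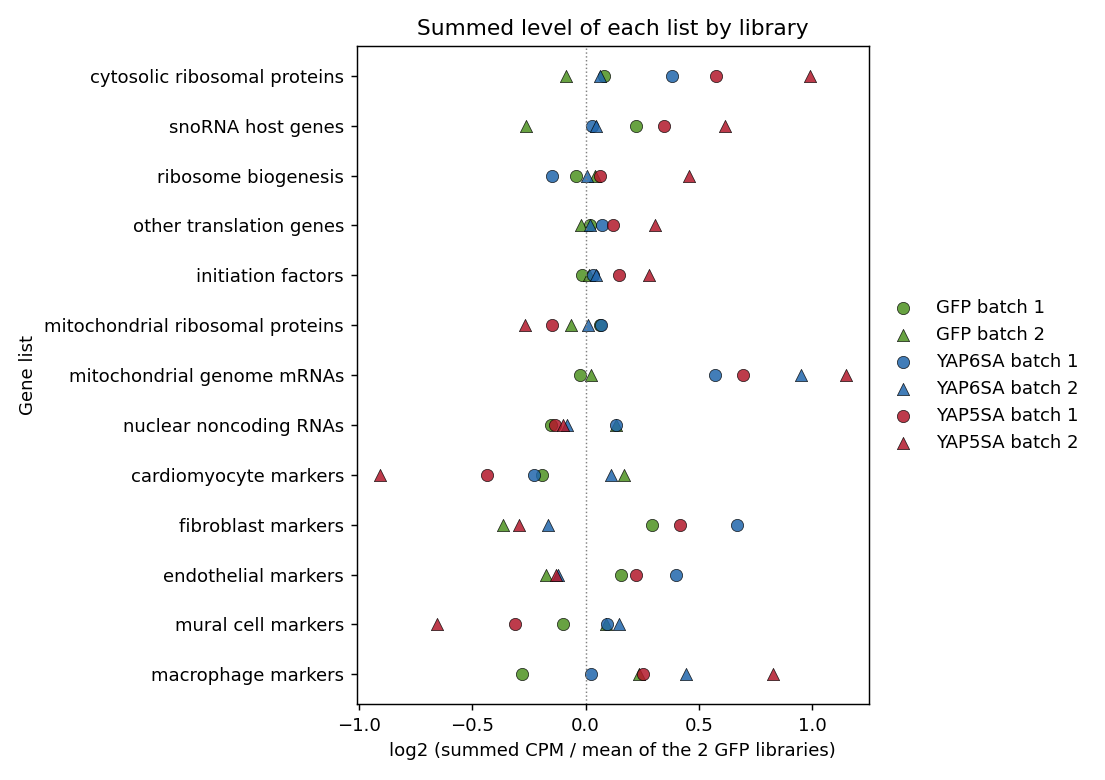
Rows are gene lists and the horizontal axis is the log2 ratio of a list's summed CPM in a library to the mean of the 2 GFP libraries, with circles for batch 1 and triangles for batch 2, in green for GFP, blue for YAP6SA and red for YAP5SA. Cytosolic ribosomal proteins are highest in the YAP5SA libraries, and mitochondrial genome mRNAs are raised in all 4 YAP libraries. Mitochondrial ribosomal proteins differ less and are lowest in the YAP5SA libraries, at -0.15 in batch 1 and -0.27 in batch 2.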

How the data were processed

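The 6 libraries hold poly-A RNA from CM nuclei selected with PCM-1. The authors mapped reads with STAR to mm10 (Ensembl 94) and deposited raw counts per gene, with no normalization or filter. Multimapping reads and reads shared by genes were left uncounted. Depth was 14552847 to 19615627 gene counts a library, and a gene at 0 counts could have up to 3, which covers counting error only. Names, coordinates and transcript lengths came from GENCODE M21 (GRCm38), which named 54495 of the 54532 genes. Promoters came from RefSeq (GRCm38.p6).

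The main test was the quasi-likelihood test of edgeR 4.0.16 (R 4.3.3) with TMM scaling. Its model of all 6 libraries, with group and batch terms, followed the study's stated design. The study names no test within edgeR, so the quasi-likelihood test was chosen here. In YAP6SA against GFP it called 6 genes higher and 0 lower, fewer than the study reported for YAP6SA at the same FDR threshold. Genes with a median log2 CPM over 1 in at least 1 group were kept, and p-values were adjusted over all 13323 with a threshold of 0.05. The replicate number is the batch number in the labels. Deviations from the group means of libraries of a batch were correlated across genes at 0.368 for GFP with YAP6SA. They were weakly correlated for GFP with YAP5SA (0.0985) and YAP6SA with YAP5SA (0.175). Across the members tested these values were 0.522, 0.116 and 0.0648. In GFP and YAP6SA, 71 and 77 members were higher in batch 1, but in YAP5SA 78 were higher in batch 2. The batch term fits 1 shift for all groups. CPM used TMM-scaled library sizes, and levels between genes were divided by the length of the principal transcript. Differences within a batch are differences of log2 CPM. A standard error (SE) is the size of the fitted log2 fold change divided by the square root of the test's F statistic. Replicates of a group had a chi-square of 25.3 to 39.6 per degree of freedom against sampling noise alone, so no library was a copy. On simulated counts for YAP5SA against GFP (12986 genes), 63 of 100 genes changed 2-fold and 92 of 100 changed 4-fold were called, with 12 false calls. The simulated libraries held no batch difference, unlike the real ones, so these numbers may not carry over to the real data.

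Members and lists were chosen with earlier results of these data known. Genes named were members with a known role, the 5 most abundant per length, the 3 highest and 3 lowest in each comparison, the members called where 10 or fewer were, *Fau* and *Rack1*, and the 2 most abundant genes of each other list, and others were chosen after their values were seen. Some genes that this rule names are not reported here. DESeq2 1.42.0, limma 3.58.1 (voom), other scalings, filters and thresholds, no batch term, 4-library fits and each library left out were alternatives. With a library left out, the lone library of its group is assumed to vary like the others. Python 3.11.15 was used for summaries.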

Additional observations from a re-analysis of the deposited data

Results flagged for a closer look

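The share of reads that mapped to several places, which lies outside the gene counts, was 3.43% and 3.69% in the YAP6SA libraries of batches 1 and 2 and 3.39% and 4.19% in the YAP5SA libraries, each above both GFP libraries (2.90% and 3.07%). These reads were not analysed by gene, and 60 of the 84 ribosomal protein genes have pseudogenes of the same family in the table.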

How the results depend on the processing

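In YAP5SA against GFP, the number of ribosomal protein genes called higher was 71, from 2 to 77 with each library left out in turn, and 16 at an FDR of 0.01. In YAP6SA against GFP, the median log2 fold change of 0.26 ran from -0.0001 to 0.48 with each library left out, 1 gene was called in the fit of the 4 libraries compared, and the log2 fold change of *Rpl3l* ran from -0.54 without the GFP library of batch 1 to 0.39 without that of batch 2, and was 0.12 without the YAP6SA library of batch 1. In YAP5SA against YAP6SA, 15 genes were called higher, and 49 with no low-count filter, 35 under edgeR's likelihood ratio test, 25 with DESeq2 (0 lower), 24 with limma-voom, 0 higher and 0 lower at an FDR of 0.01, 45 at 0.1, and 0 to 75 higher and 0 to 1 lower with each library left out. The joint test called 50 genes, 1 at an FDR of 0.01, and 13 to 78 with each library left out. The cause of these changes was not tested.

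Without the replicate block (no batch term), 3 genes rather than 15 were called higher in YAP5SA against YAP6SA, 27 rather than 50 in the joint test, and 60 rather than 71 in YAP5SA against GFP. Of the values recomputed, 153 for the family kept their direction and size class, beside 25 that moved and are given here as values or ranges. For single genes, 372 values stayed on the same side of the threshold, called or not, 56 lost a call and 5 gained one, besides the 2 reversed values of *Rpl3l*. With 2 libraries in a group, the size of each change is known only within the ranges above.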
